A study of Arabidopsis thaliana with 6 samples.

Results

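The 27 genes described here are annotated to the response to chitin, to defence or to wounding. They came from a comparison of salt-treated Arabidopsis thaliana plants with high and with disrupted expression of ANAC069, a NAC-domain transcription factor gene. The genes were taken from the authors' deposited tables of 567 probe sets (groups of short array probes read as 1 value), of which 341 are listed as up and 226 as down. A probe set entered if it named 1 gene and carried any of 3 Gene Ontology annotations (response to chitin, defence response, response to wounding) without those for transcription factor activity, protein kinase activity, translation or the nucleolus. Of the 79 listed probe sets with such an annotation, 4 named several genes, 36 were transcription factor or kinase genes, and 12 further genes such as LOX3, ACS6 and JAZ1 were left aside by name. This left 24 genes from the up table and 3 from the down table.

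Total RNA of 4-week-old plants was hybridised to 6 Affymetrix ATH1 arrays, after NaCl at 200 mM for 3 h. The overexpression line OE-3 (OE) and the insertion line KO-2 (KO, SALK_095231C) were represented by 3 arrays each, which the series design describes as independent biological replicates. Each genotype was 1 line. The promoter driving ANAC069 in OE, the tissue sampled and any pooling of plants are not given in the sources used here. Both groups had received salt, and untreated and wild-type plants were not analysed. Each difference below is therefore between 2 genotypes under salt, and neither genotype's distance from wild type was measured. The ANAC069 signal was 386, 364 and 391 on KO replicates 1, 2 and 3 and 2991, 2386 and 2360.2 on OE replicates 1, 2 and 3, so the arrays went with their labels. The position of its probes relative to the insertion is not known here, and the KO signal does not measure intact transcript.

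Chitin is a fungal wall polymer that plants sense at the cell surface. Its perception sets off calcium influx, a burst of reactive oxygen and kinase cascades, and within minutes the transcription of many genes. Wounding acts largely through jasmonate, a hormone made from membrane lipids, and intracellular receptors detect pathogen effectors and can trigger cell death. Salt, touch and cold induce many of the same early genes.

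The authors' selection on OE against KO chose these genes, so their differences are given as a description. Their direction and size support nothing further. The authors' limits were an absolute fold of at least 2 and an unadjusted p-value of at most 0.05. In the authors' deposited table, RLP19 and RBOHD were the members nearest the fold limit, at 2.03-fold and 2.04-fold, and CHS was nearest the p limit, at 0.0460. Some genes of the same annotation met the authors' limits but were left out as regulators or by name. Of these, CRK4 (2.02-fold, a kinase gene) and RHA3B (2.03-fold, left out by name) were nearest the fold limit in the same authors' deposited table. The log2 fold changes of the pair were 1.01 (SE 0.20) and 1.002 (SE 0.15). Probe sets below the fold limit carry no gene name here. The nearest among those tested and within the p limit had a fold of 1.9997, lower in OE.

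All 27 genes passed the filter on dim probe sets, and in none did the 3 OE signals overlap the 3 KO signals. Over the 15922 probe sets tested, the groups did not overlap in 31.2%, namely 12.9% higher in OE and 18.3% lower. Limma (adjusted p under 0.05 over all probe sets tested) called 22 of the 24 members of the up table higher and 1 of the 3 members of the down table lower. Over all probe sets it called 4.87%, of which 3.03% were higher and 1.84% lower, a background from which nothing is read here, because the rule used this contrast. The median log2 fold change was 1.19 over the 27 genes and -0.08 over all probe sets tested. RNA came from whole samples, so fewer cells of a type and less RNA per cell cannot be told apart. Leaving out any of 4 arrays lowered the calls over the whole table. Without OE replicate 2 limma called 3 members and 66 of all 15922 probe sets higher, and without OE replicate 3 it called 2 and 88, against 22 and 483 with all arrays. Without KO replicate 2 the counts were 9 members and 153 probe sets, and without KO replicate 3 they were 12 and 243.

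**Figure D1:**
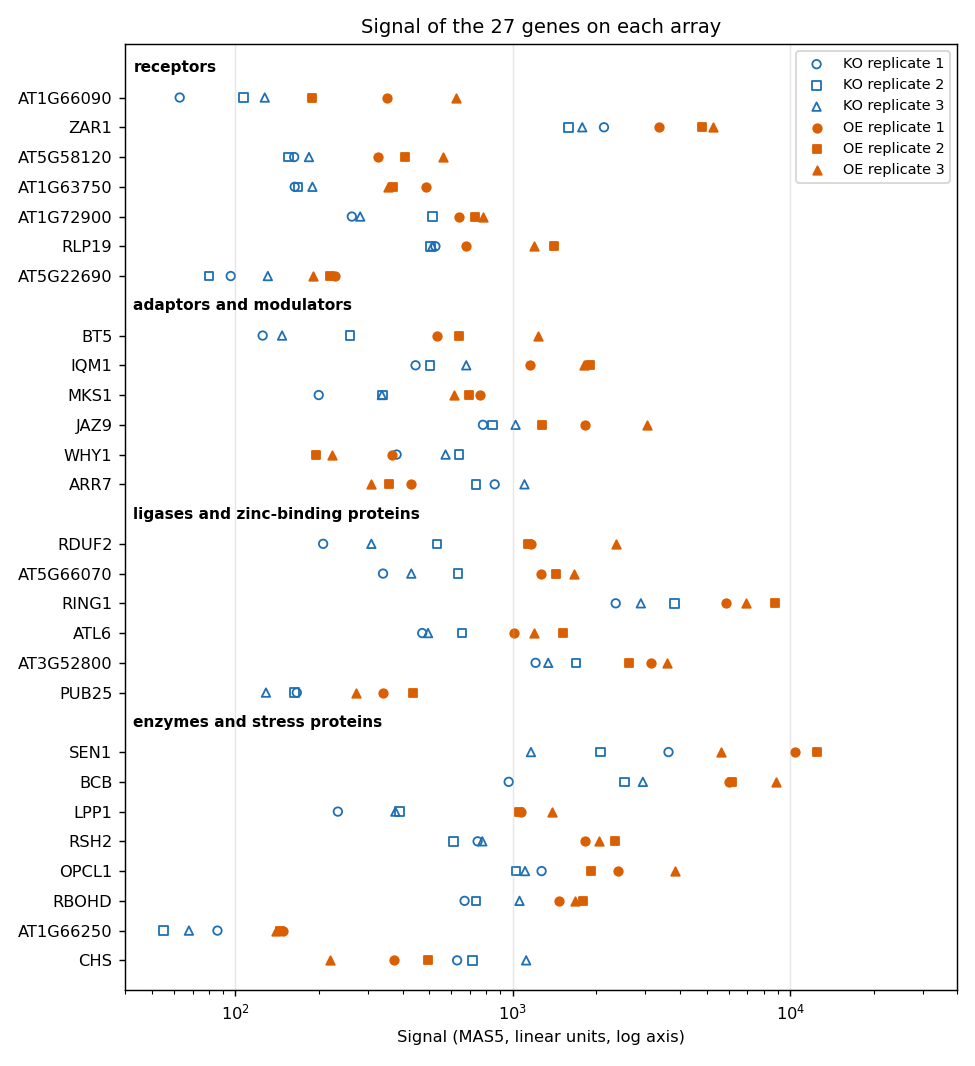
Signal of each of the 27 genes on each array (horizontal log axis, MAS5 linear units), with open blue symbols for the 3 KO arrays, filled orange symbols for the 3 OE arrays and a symbol shape for each replicate. Genes are grouped by role. In 24 genes each OE symbol lies to the right of each KO symbol, and in WHY1, ARR7 and CHS each lies to the left.

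Leaving out the genes annotated as transcription factors and kinases did not leave only genes without a regulatory role. The product of 1 member is a cytokinin response regulator (ARR7), that of another a jasmonate repressor (JAZ9), and BT5 is titled a transcription regulator in the deposited tables. WHY1 encodes a DNA-binding protein, and several members encode ubiquitin ligases. None carries the annotation for sequence-specific transcription factor activity or protein kinase activity. By term, 6 genes had chitin alone, 3 chitin and defence, 13 defence alone and 5 wounding alone. No gene carried wounding with another of the terms. In the order chitin, defence and wounding, limma called 8 of 9, 13 of 16 and 4 of 5 genes higher, and ARR7, a chitin gene, lower. Limma called 287 of the 341 probe sets of the whole up table higher. Over all probe sets tested the shares were 3.03% higher and 1.84% lower, and nothing about the terms is read from these counts.

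Receptors formed a group of 7 genes, all with higher signals in OE, of which 6 passed in limma. ZAR1 encodes an intracellular receptor with a nucleotide-binding domain that, with partner kinases, recognises bacterial effectors. Its signal was 2128, 1584 and 1777 on KO replicates 1, 2 and 3 and 3356, 4801 and 5254 on OE replicates 1, 2 and 3. It rose in OE, with a log2 fold change of 1.27 (SE 0.19), and the lowest OE array was 1.58 times the highest KO array. In the authors' deposited table its probe set aligns to chromosome 3 from 18936126 to 18938685 on the plus strand, on a build that the table does not name.

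A further 5 genes of the group have no symbol in the tables and are annotated there to innate immune response, transmembrane receptor activity and ATP binding. AT1G66090 had signals of 62.9, 107 and 127 in KO and 351, 189 and 622 in OE, in replicate order. Its log2 fold change of 1.70 (SE 0.40) was the largest of the receptors and also the one with the largest SE among all genes but SEN1. The OE arrays alone spanned from 189 to 622. Its call did not hold without any of the 6 arrays in turn. AT5G58120 had signals of 163, 155 and 184 in KO and 328, 408 and 558 in OE, with a log2 fold change of 1.26 (SE 0.21). The KO arrays of this gene lay close together, within 155 to 184, and the OE arrays spread upward from 327.5.

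AT1G63750, AT1G72900 and AT5G22690 were also called higher, AT1G63750 by 1.13 (SE 0.17), AT1G72900 by 1.05 (SE 0.24) and AT5G22690 by 0.97 (SE 0.21) on the log2 scale. AT1G63750 kept its call without each of 3 arrays. AT1G72900 kept it only without KO replicate 2 and AT5G22690 only without KO replicate 3, and both lost it with no filter on dim probe sets, with no variance trend, with replicate number as a block and with the RNA-quality covariate given further on. RLP19, a receptor-like protein with leucine-rich repeats and no kinase domain, read 525, 505 and 512 in KO and 678, 1409 and 1192 in OE. OE replicate 1 lay nearer the KO arrays than the other OE arrays did. The log2 fold change of RLP19 was 1.001 (SE 0.25), and it did not pass in limma. It passed without OE replicate 1, after the arrays were shifted to the same median, and when the dim filter was raised to the 50th percentile.

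**Figure D2:**
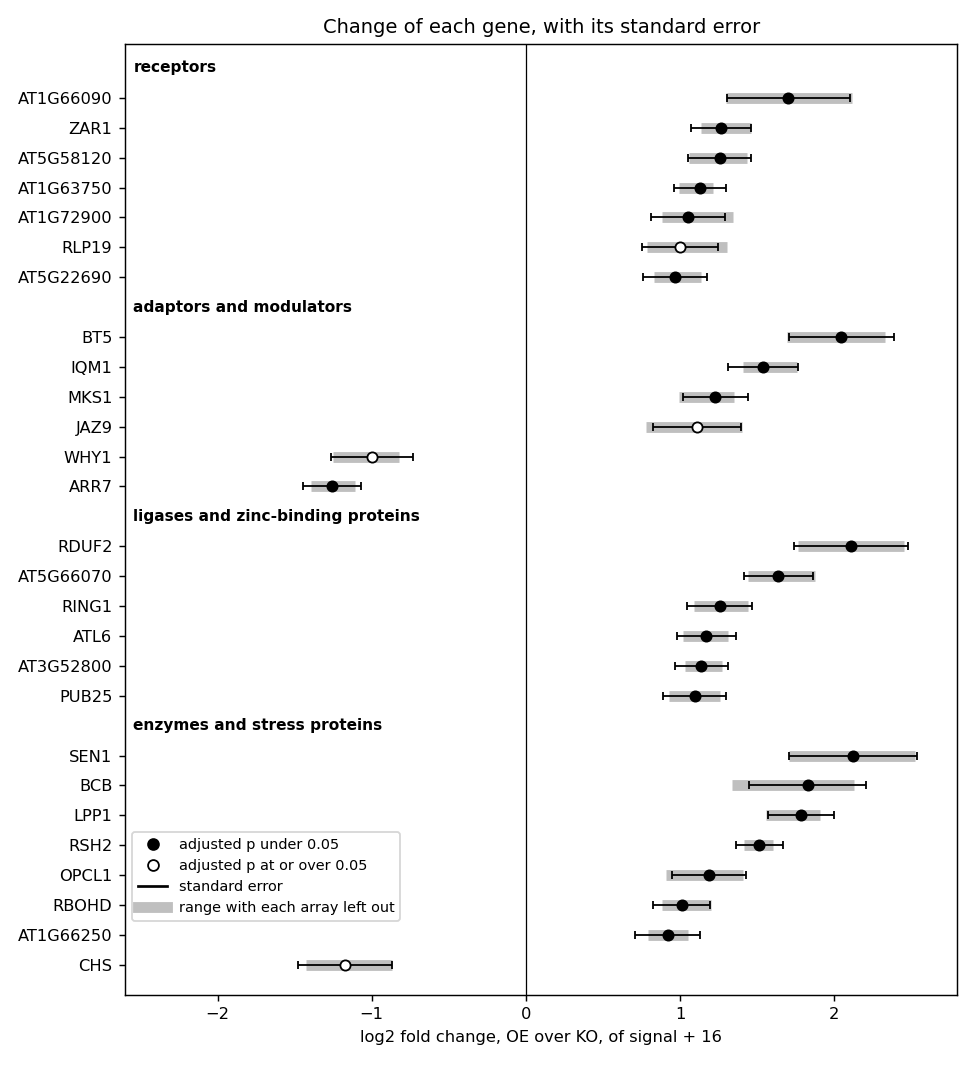
Log2 fold change of signal + 16, OE over KO, for each gene (horizontal axis), with the standard error as a bar, filled points for genes with an adjusted p under 0.05 and a grey band for the range with each array left out in turn. The points of the 24 higher genes lie between 0.92 and 2.12 and those of the 3 lower genes between -1.26 and -0.996, and no band crosses 0.

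Adaptors and modulators made up 6 genes, with the members in both directions. BT5 encodes a protein with BTB and TAZ domains, a family of scaffold proteins. Its signal was 125, 259 and 147 on the KO arrays and 531, 638 and 1232 on the OE arrays, a log2 fold change of 2.05 (SE 0.34). OE replicate 3 stood well above the other OE arrays, and KO replicate 2 above the other KO arrays. IQM1 (symbol EDA39 in RefSeq), a calmodulin-binding protein, had signals of 446, 502 and 679 in KO and 1156, 1889.5 and 1808 in OE and rose by a log2 fold change of 1.54 (SE 0.23). MKS1, a nuclear substrate of the defence kinase MPK4 that binds WRKY factors, rose too (log2 fold change 1.23, SE 0.21). JAZ9 (symbol TIFY7), a repressor of jasmonate-responsive transcription factors, had a log2 fold change of 1.11 (SE 0.28) and did not pass. It was called after the shift to the same median and when the dim filter was raised to the 50th percentile.

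The genes lower in OE were ARR7 and WHY1 of this group and CHS of the enzymes. ARR7 is a type-A response regulator, a family that is induced by cytokinin and dampens cytokinin signalling. Its signal was 859, 735 and 1100.2 on the KO arrays and 429, 357 and 307 on the OE arrays. It fell in OE, with a log2 fold change of -1.26 (SE 0.19), a signal + 16 that was 2.39-fold higher in KO. In the authors' deposited table its minus-strand alignment on chromosome 1 runs from 6577918 to 6579078. ARR7 was not called without OE replicate 2 or OE replicate 3.

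WHY1 encodes a single-stranded DNA-binding protein found in plastids and the nucleus. It read 381, 639.9 and 572 in KO and 367, 195 and 223 in OE, so KO replicate 1 and OE replicate 1 nearly met. The log2 fold change, -0.996 (SE 0.27), did not pass. CHS (symbol TT4), the chalcone synthase that opens flavonoid synthesis, read 629, 716 and 1116 in KO and 373, 493 and 219 in OE. At a log2 fold change of -1.17 (SE 0.30), CHS did not pass either. Both passed without KO replicate 1. WHY1 also passed without OE replicate 1, and CHS with the dim filter at the 50th percentile.

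Ubiquitin ligases and zinc-binding proteins were a group of 6 genes, and all 6 rose in OE. Ubiquitin ligases attach ubiquitin to target proteins and so set how long these last. RDUF2, a RING-domain ligase, had signals of 207, 532 and 309 in KO and 1159.6, 1129 and 2355 in OE, with a log2 fold change of 2.11 (SE 0.37). OE replicate 3 was far above the other OE arrays, which lay side by side. AT5G66070, a gene without a symbol whose product is annotated as a zinc-binding membrane protein, read 340.2, 635 and 430.1 in KO and 1267, 1434 and 1661 in OE. The difference came to a log2 fold change of 1.64 (SE 0.22), and it was called without each array in turn except OE replicate 2 and OE replicate 3.

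RING1, a plasma membrane ligase linked to programmed cell death, read 2346, 3814 and 2890.1 in KO and 5879, 8816 and 6891 in OE. RING1 rose by a log2 fold change of 1.26 (SE 0.21). ATL6 and PUB25, a RING and a U-box ligase, had log2 fold changes of 1.17 (SE 0.19) and 1.10 (SE 0.20). AT3G52800, annotated to zinc ion and DNA binding, had signals of 1207, 1685 and 1339.8 in KO and 3137, 2629 and 3595 in OE and a log2 fold change of 1.14 (SE 0.17). Within KO, in 5 of the 6 genes, all but PUB25, replicate 1 was the lowest KO array and replicate 2 the highest. BT5, MKS1, WHY1, LPP1 and AT1G72900 of other groups had the same order. Over all probe sets tested, KO replicate 1 was the lowest KO array in 39.3% and KO replicate 2 the highest in 31.1%. Without OE replicate 3 none of the 6 ligases and zinc-binding proteins was called. Without OE replicate 2 only AT3G52800 was. Those fits called 88 and 66 of all probe sets higher. All 6 had an unadjusted p under 0.05 in both fits.

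Enzymes and stress proteins made up 8 genes, of which 7 rose in OE and CHS was lower without passing. LPP1 (symbol PAP1 in RefSeq) is a lipid phosphate phosphatase that removes phosphatidic acid, a lipid messenger formed under stress. Its signal was 234, 390.2 and 377 on the KO arrays and 1069, 1055 and 1384 on the OE arrays. The lowest OE array was 2.70 times the highest KO array, the widest such gap among the 24 genes higher in OE. The log2 fold change was 1.78 (SE 0.21). In the authors' deposited table LPP1 is on the minus strand of chromosome 2, between 107181 and 108555.

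RSH2 encodes a plastid enzyme of the RelA/SpoT family, which makes the alarmone ppGpp. It read 746, 611 and 775 in KO and 1821, 2331 and 2035 in OE, with little spread in either genotype. Its log2 fold change of 1.52 (SE 0.15) had the smallest SE of the 27 genes. LPP1 and RSH2 were the members that limma called without each of the 6 arrays in turn. The authors' deposited table places RSH2 on the minus strand of chromosome 3, between 4650901 and 4653514.

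SEN1 and BCB are both induced in the dark and in ageing leaves, and both had wide spreads. SEN1, a senescence-associated gene, read 3636, 2066 and 1161 in KO and 10377, 12469 and 5645 in OE. Its log2 fold change of 2.12 (SE 0.41) had the largest SE of the 27 genes. Its size was close to those of RDUF2 and BT5, and their order changed with the pseudocount: with 1 in place of 16 added to the signal the values were 2.13 for SEN1, 2.16 for RDUF2 and 2.14 for BT5. With the ratio of 3' to 5' control signals as a covariate the log2 fold change of SEN1 was 0.89 and it was not called (limma adjusted p = 0.259). BCB, a blue copper protein anchored at the plasma membrane, read 965, 2523 and 2939 in KO and 6004, 6163 and 8857 in OE, with a log2 fold change of 1.83 (SE 0.38). The genes ran opposite to each other among the KO arrays, as replicate 1 was the highest for SEN1 and the lowest for BCB. SEN1 kept its call without KO replicate 1 and lost it without any other array. BCB was called without KO replicate 1, KO replicate 3 or OE replicate 1, and was not without the other 3 arrays.

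RBOHD is the NADPH oxidase of the plasma membrane that produces the oxidative burst. Its signal was 669, 735 and 1056 on the KO arrays and 1463, 1787 and 1678 on the OE arrays. The log2 fold change was 1.01 (SE 0.19). OPCL1, a peroxisomal ligase that activates a jasmonate precursor, rose by 1.19 (SE 0.24) on the log2 scale. Its call held without KO replicate 1 or OE replicate 1 and was lost without any other single array. It was also lost with no dim filter, no variance trend, replicate number as a block or the RNA-quality covariate. AT1G66250, annotated to the hydrolysis of O-glycosyl compounds, had a log2 fold change of 0.92 (SE 0.21). The signal of this gene was low, and with 1 in place of 16 added to it the value was 1.06. It kept its call only without KO replicate 1 when an array was left out. The OE arrays of AT1G66250 lay within 140.2 to 148.

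**Figure D3:**
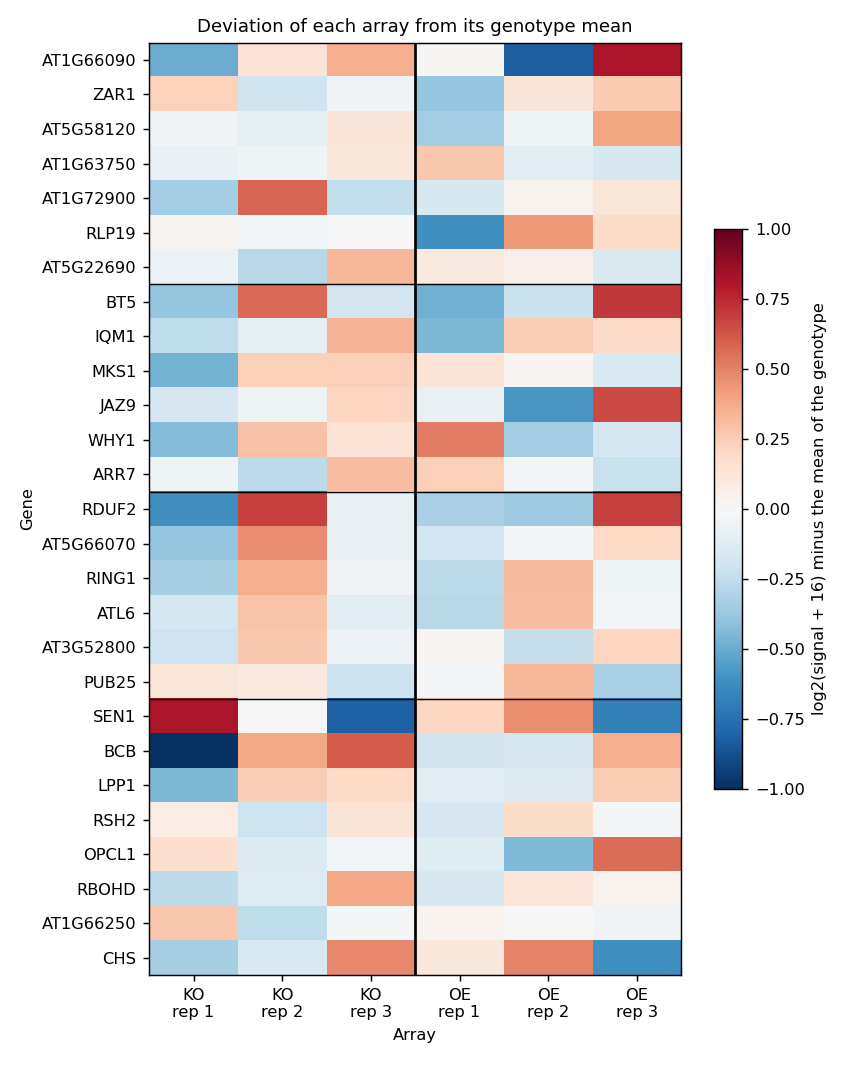
Deviation of each array from the mean of its own genotype, in log2(signal + 16), for the 27 genes (rows, black lines between the role groups) and the 6 arrays (columns, a vertical line between KO and OE). Red is above and blue below the genotype mean, and deviations beyond 1 have the end colour. On KO replicate 1 the deviation is below 0 in 20 genes, and on OE replicate 3 it is above 0 in 15 and below 0 in 12. SEN1, PUB25, AT1G66250 and RSH2 are above 0 on KO replicate 1 and below 0 on OE replicate 3, SEN1 by the widest margins.

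The replicate arrays of a genotype did not carry these genes equally. Among the 24 genes higher in OE, KO replicate 1 was the lowest KO array in 15, a share of 62.5%, against 39.3% of all probe sets tested. OE replicate 3 was the highest OE array in 12, against 30.6% of all probe sets, and OE replicate 1 was the lowest in 12, against 33.0%. The median deviation from the genotype mean was -0.19 on KO replicate 1, -0.16 on OE replicate 1 and 0.19 on OE replicate 3 on the log2 scale. Over all probe sets tested, the median deviations on these arrays were -0.01, 0.01 and -0.01. These deviations leave the genotype difference out, but at a given difference a small spread made listing by the authors more likely. The spreads of the 24 genes were larger than over all probe sets tested, as were those of the whole up table. Their median SD was 0.31 between KO arrays and 0.30 between OE arrays, against 0.20 and 0.21 over all probe sets tested. Over all 341 probe sets of the up table it was 0.329 and 0.325, so the larger spread was not particular to these genes. Over the 276 pairs of these 24 genes, deviations on the 6 arrays had a median correlation of 0.11, and 57.2% of pairs were above 0. Over all pairs of probe sets tested, 50.1% were. The points of a pair share the arrays, and 6 arrays are too few for more than a description. SEN1 had a median correlation of -0.45 with the other genes, and LPP1, BCB and BT5 had 0.51, 0.50 and 0.48.

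The ratio of 3' to 5' signals of the actin, GAPDH and ubiquitin controls, a sign of RNA quality, tended to be higher in OE. As a geometric mean over 6 control pairs the 3 OE arrays had 3.70 ± 0.32 and the 3 KO arrays 3.11 ± 0.32 (mean ± SD, n = 3 each). The groups overlapped, since KO replicate 1 read 3.47 and OE replicate 3 read 3.33. With this ratio as a covariate, 10 members were called higher and 0 lower, and 25 of the 27 had an unadjusted p under 0.05. Over all 15922 probe sets the same fit called 189 higher and 19 lower, against 483 and 293 without it, and 1919 had an unadjusted p under 0.05, against 4273. The median log2 fold change was then 1.44 over the 27 genes and -0.08 over all probe sets tested. The log2 fold change of SEN1 went from 2.12 to 0.89. That of BCB went from 1.83 to 2.93, of AT1G66090 from 1.70 to 2.70 and of RDUF2 from 2.11 to 3.08. For BT5 the values were 2.05 and 2.85, and for JAZ9 they were 1.11 and 1.74. Among the genes higher in OE, RSH2, AT1G63750, PUB25, AT5G22690 and AT1G66250 moved down, as SEN1 did. Because the ratio tended to go with genotype over only 6 arrays, this fit cannot fully separate ratio from genotype. Its values are therefore not corrected changes. In that fit 2 receptors, 3 ligases and zinc-binding proteins, 2 adaptors and 3 enzymes were called. Median signals of the OE arrays lay between 149 and 158, below those of the KO arrays, at 161 to 186. Giving all arrays an equal median took the median log2 change over all probe sets tested from -0.08 to 0.09, and 24 members were then called higher and 1 lower. Over all probe sets the calls went from 483 to 794 higher and from 293 to 143 lower.

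**Figure D4:**
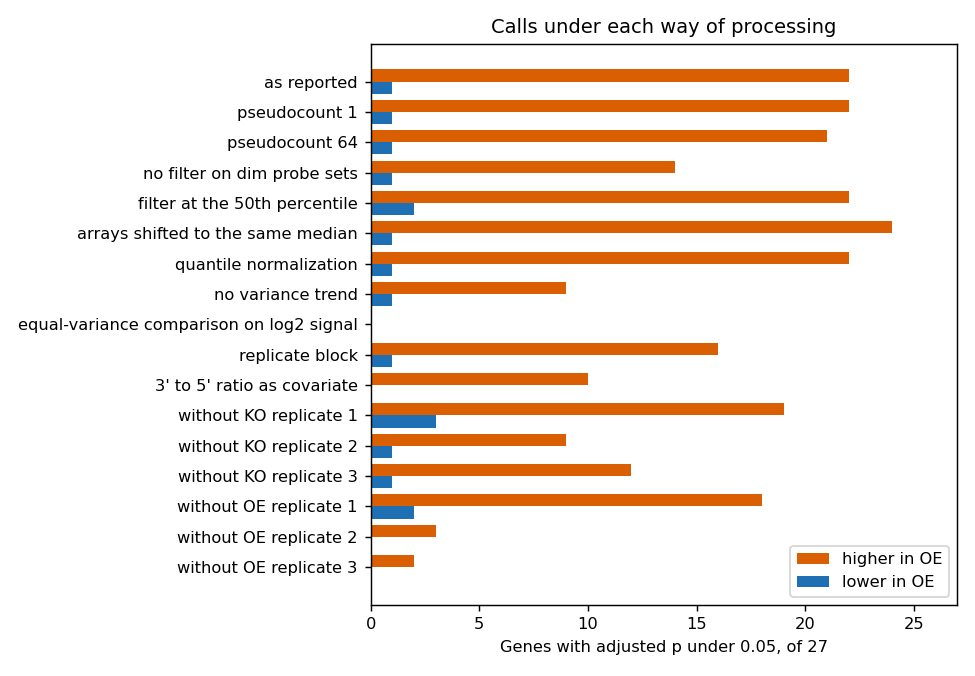
Number of the 27 genes with an adjusted p under 0.05 (horizontal axis), higher in OE in orange and lower in OE in blue, as reported and under each other way of processing. The count of higher genes runs from 0 with the equal-variance comparison to 24 with the arrays shifted to the same median, where the counts over all probe sets tested were 0 and 794.

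Other genes of the same annotations in the authors' tables lay on the same side. The 31 transcription factor genes of the 3 terms had a median log2 fold change of 1.57, with 28 called higher. The 5 kinase genes had a median of 1.09, all called, and the 12 genes left aside by name 2.09, all called. The 24 members of the up table had a median of 1.24, against 1.33 over all 341 probe sets of that table. All of these genes were selected on the same contrast and arrays, so their side and their calls were largely set in advance. Limma called 287 of the 341 probe sets of the up table higher, against 3.03% of all probe sets tested. Genes of the same terms outside the authors' tables carry no name here and were not counted. The medians stand side by side, and the differences between them were not tested. The median SD between KO arrays was 0.31 on the log2 scale for the 24 genes and 0.33 for the transcription factor genes. Between OE arrays it was 0.30 and 0.40. Over all probe sets tested the median SD was 0.20 between KO arrays and 0.21 between OE arrays.

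A set of 10 lists with 116 loci covered the pathways around these genes, chosen with earlier results of these data known. Of these loci, 13 had a probe set naming them alone in the authors' tables, 4 of which are members (ZAR1, MKS1, RBOHD and OPCL1). Limma called 10 of the 13 higher and 0 lower. Those tables were selected on the same contrast, and limma called 287 of the 341 probe sets of the up table higher. Over all probe sets tested it called 3.03% higher and 1.84% lower. Nothing about the pathways is read from the count. The called genes outside the 27 numbered 6, of which 2 belong to the membrane traffic list. SYP122, a plasma membrane syntaxin of secretion, had a log2 fold change of 1.62 (SE 0.19), and EXO70B2, a subunit of the exocyst that tethers secretory vesicles, one of 1.63 (SE 0.15). The VQ-motif proteins JAV1 and SIB1, partners of WRKY factors, had 1.58 (SE 0.22) and 1.498 (SE 0.33). DMR6, an oxygenase that hydroxylates salicylic acid, had 1.38 (SE 0.29), and CYP94C1, which oxidises jasmonoyl-isoleucine, 1.05 (SE 0.23). None of the 16 loci of pathogenesis-related and antimicrobial proteins and none of the 8 loci of defence peptides had a probe set naming them alone in these tables. Probe sets outside the tables have no gene name here, so the levels of those genes were not analysed here.

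The 27 genes were spread over all 5 chromosomes, with 8 on chromosome 1, 2 on chromosome 2, 6 on chromosome 3, 3 on chromosome 4 and 8 on chromosome 5. By the alignments in the authors' deposited table, AT1G66090 and AT1G66250 were the closest pair, 89.1 kb apart on chromosome 1. MKS1 and PUB25 followed at 284 kb on chromosome 3. All other neighbours were at least 477 kb apart.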

How the data were processed

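Per the submitters' processing notes the authors obtained intensity values with MAS5, 1 per probe set and array on a linear scale. The authors' deposited tables hold their p-value and absolute fold (a ratio) for each listed probe set, and 48 further columns under names that match no sample label were not used. Software versions are not given in the sources used here. Names came from the deposited tables, matched by gene identifier to NCBI RefSeq's table (TAIR10.1).

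Limma 3.58.1 in R 4.3.3 (lmFit, eBayes with trend) was fitted to log2(signal + 16), which understates changes of dim probe sets. The 64 controls and probe sets at or below the 30th percentile of mean log2 value were left out, leaving 15922. Benjamini-Hochberg adjustment ran over all of these, two-sided, with a threshold of 0.05. The steps were run on simulated arrays with the same SD for every probe set and independent arrays. Spreads in the real arrays differ between probe sets, so the simulation checks the running of the steps only. With 3 arrays per genotype, precision is limited by the number of arrays.

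Signals on every array are given for the 12 largest changes, every lower gene, the 5 highest mean signals, the genes nearest the fold limit and the leading 3 of each role. The other members have their log2 fold change and SE, and genes of the pathway lists are named where called. The members and lists were chosen with earlier results of these data known. Alternatives changed the pseudocount, filter, scaling, variance trend, test, replicate block, RNA quality term and arrays.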

Additional observations from a re-analysis of the deposited data

How the results depend on the processing

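Of the 27 genes, each kept the sign of its log2 fold change in all 16 alternatives that tested it. Calls depended on the processing, and the cause was not tested. The 22 members called higher became 14 with no filter on dim probe sets, 9 with no variance trend, 10 with the 3' to 5' ratio as a covariate and 0 with the equal-variance comparison of log2 signals adjusted over all probe sets, where all 27 had an unadjusted p under 0.05. Over all probe sets the calls higher fell too, from 483 to 261, 161, 189 and 0 in that order, and to 238 with replicate number as a block. With 1 array left out at a time the count ran from 2 (without OE replicate 3) to 19 (without KO replicate 1), and over all probe sets from 66 (without OE replicate 2) to 548 (without KO replicate 1). The 1 member called lower became 2 with the dim filter raised to the 50th percentile and 0 with the covariate or the equal-variance comparison, and ran from 0 to 3 with 1 array left out. The median log2 fold change of 1.19 moved to 1.44 with the covariate and stayed between 1.09 and 1.36 otherwise. With replicate number as a block, 16 members were called higher and 1 lower, with a median of 1.19. Same-numbered KO and OE arrays deviated from their genotype means with correlations of -0.24, -0.12 and 0.06 over probe sets. Pairs with different numbers had correlations from -0.21 to 0.27, so same-numbered arrays were no more alike than others. Deviations from a mean of 3 arrays depend on each other, so these values cannot settle whether the numbers pair the arrays.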
